A study of Mus musculus with 8 samples.

Results

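The nuclear genes for proteins of the mitochondrial ribosome were followed in mouse liver after chronic carbon tetrachloride (CCl4) treatment and after CCl4 with erlotinib. The members are all array probes whose annotated symbol begins with Mrpl or Mrps followed by a digit, which gave 110 of 25697 probes and 76 genes of the 16593 named on the array. Of these, 49 genes encode proteins of the large subunit and 26 of the small subunit. Mrps18a and Mrps30 are counted with the large subunit, where their proteins sit despite their names. The last, Mrps36, carries the name but encodes a component of the oxoglutarate dehydrogenase complex. Of the 75 ribosomal genes, 43 were counted as having a bacterial counterpart and 32 as encoding proteins found only in mitochondrial ribosomes. This sorting follows the number in the gene symbol, with Mrps18a, Mrps18b, Mrps24 and Mrps30 set by hand, so single genes may be misplaced.

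Mitochondria keep their own ribosome, separate from the cytosolic one, to make the few proteins encoded by mitochondrial DNA. These proteins are core subunits of the oxidative phosphorylation complexes. All of the protein components of this ribosome are encoded in the nucleus, made in the cytosol and imported. Hepatocytes are rich in mitochondria, so the liver depends on this machinery for ATP supply, fatty acid oxidation and urea synthesis.

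RNA came from frozen non-tumour liver of male A/J mice, an inbred strain, and was hybridised to 8 Illumina BeadArrays, 2 for each of 4 groups. CCl4 is a hepatotoxin that is activated in hepatocytes and that scars the liver on repeated dosing, and erlotinib is a kinase inhibitor of the EGF receptor, a growth factor receptor. The groups received vehicle, CCl4 alone, or CCl4 plus erlotinib, the last at a dose of either 2 mg or 5 mg. CCl4 (0.1 cc of a 40% solution in olive oil) or vehicle was gavaged 3 times weekly over 18 weeks. The livers were taken at 19 weeks, after 1 week without CCl4, although the sample labels read week 18. How old the mice were, when erlotinib was given and to what weight its doses refer is not stated in the labels. Each title carries its own number, but whether these stand for separate animals is not stated, and the p-values therefore measure the spread between arrays, which may be technical.

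Each level is a log2 intensity after background correction and quantile normalization, and 1 probe, the brightest, stands for a gene. The filter on dim probes kept 72 members, 46 of the large and 25 of the small subunit and Mrps36. Mrpl19, Mrpl32, Mrpl39 and Mrps14 were below it and were not tested. As background on an array served the 99th percentile over 1324 probes for smell, pheromone and trace amine receptors, genes of sensory neurons. By that limit 54 members were above background on all 8 arrays, 10 on some arrays and 8 on none. Mrps36 was among the last, and its CCl4 difference was -0.10 log2 (adjusted p = 0.790).

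The promoters of these genes often carry binding motifs of the nuclear factors known for driving mitochondrial genes. Promoter windows of 300 bases, from 250 before to 50 after the annotated start, were taken from RefSeq (GRCm38.p6) for 67 of the 76 members. On either strand, 12 windows (17.9%) held the motif of nuclear respiratory factor NRF1 (GCGCA and GCGC parted by any 1 base), against 4.78% of 27025 windows of all genes and 8.51% of 8887 windows of genes tested here. The GABP motif, CCGGAAG, of the ETS family, was in 25 windows (37.3%), against 9.12% of all and 14.9% of tested genes. The YY1 motif, AAGATGGC, was in 12 windows (17.9%), against 2.88% and 4.10%. The E-box CACGTG was in 5 windows (7.46%), against 7.24% and 9.17%. At least 1 of the first 3 motifs was in 41 member windows (61.2%), against 15.2% of all and 24.4% of tested genes. A match is only a description of these letters and not evidence of binding.

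The windows below belong to the members that passed the test in the comparisons that follow and that have a RefSeq window. Capitals mark the NRF1, GABP and YY1 motifs, and each sequence is written from 5′ to 3′ on the strand of the gene. The member with the largest difference, Mrps18b, has a GABP motif read from the other strand as CTTCCGG, at the end of its window. Mrpl17 has a GABP motif far upstream and an NRF1 motif near its start, and Mrpl33 has a GABP motif across its start. Mrps12 has a GABP motif at its start and a YY1 motif upstream that is read from the other strand as GCCATCTT. Mrpl49 has a YY1 motif just after its start, while Mrpl10 has none of these letters in this window.
Mrps18b, chr17:35916391-35916690, minus strand: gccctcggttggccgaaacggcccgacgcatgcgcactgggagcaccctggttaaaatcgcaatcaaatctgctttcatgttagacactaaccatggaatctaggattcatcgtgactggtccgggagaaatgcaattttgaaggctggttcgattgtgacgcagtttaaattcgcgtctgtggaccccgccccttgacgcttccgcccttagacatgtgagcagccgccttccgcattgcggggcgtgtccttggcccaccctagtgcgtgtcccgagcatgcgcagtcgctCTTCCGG
Mrpl17, chr7:105811038-105811337, minus strand: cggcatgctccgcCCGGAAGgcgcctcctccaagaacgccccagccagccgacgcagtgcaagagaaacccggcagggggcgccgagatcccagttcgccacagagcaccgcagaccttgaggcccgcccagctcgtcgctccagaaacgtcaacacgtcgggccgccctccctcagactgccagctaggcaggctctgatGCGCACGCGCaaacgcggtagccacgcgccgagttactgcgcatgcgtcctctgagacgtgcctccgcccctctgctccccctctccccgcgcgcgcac
Mrpl33, chr5:31613701-31614000, plus strand: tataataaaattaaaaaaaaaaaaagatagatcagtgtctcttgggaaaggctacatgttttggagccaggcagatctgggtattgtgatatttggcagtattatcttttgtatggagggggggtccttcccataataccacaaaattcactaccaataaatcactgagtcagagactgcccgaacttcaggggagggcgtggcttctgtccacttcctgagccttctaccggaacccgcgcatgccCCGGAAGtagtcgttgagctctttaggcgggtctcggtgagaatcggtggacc
Mrps12, chr7:28741772-28742071, minus strand: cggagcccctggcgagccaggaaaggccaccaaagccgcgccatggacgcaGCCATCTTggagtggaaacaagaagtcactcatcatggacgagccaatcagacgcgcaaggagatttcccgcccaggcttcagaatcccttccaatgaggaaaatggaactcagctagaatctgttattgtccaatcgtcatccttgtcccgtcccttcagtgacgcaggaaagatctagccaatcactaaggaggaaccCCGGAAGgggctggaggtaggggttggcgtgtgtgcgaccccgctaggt
Mrpl49, chr19:6057706-6058005, minus strand: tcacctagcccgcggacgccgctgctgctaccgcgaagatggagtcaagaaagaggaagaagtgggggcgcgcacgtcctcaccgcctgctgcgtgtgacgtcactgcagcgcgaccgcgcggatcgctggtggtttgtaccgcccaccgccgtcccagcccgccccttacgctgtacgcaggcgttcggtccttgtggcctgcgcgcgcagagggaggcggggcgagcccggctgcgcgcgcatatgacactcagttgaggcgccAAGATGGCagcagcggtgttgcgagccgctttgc
Mrpl10, chr11:97041332-97041631, plus strand: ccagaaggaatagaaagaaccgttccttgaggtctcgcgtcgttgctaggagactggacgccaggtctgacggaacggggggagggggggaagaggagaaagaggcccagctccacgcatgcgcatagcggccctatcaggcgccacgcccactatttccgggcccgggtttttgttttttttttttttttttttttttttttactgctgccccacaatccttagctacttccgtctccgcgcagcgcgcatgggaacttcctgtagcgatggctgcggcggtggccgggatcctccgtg

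In CCl4 livers a few mitochondrial ribosomal protein genes changed and most did not pass the test. Of the 72 members tested, 5 rose (Mrps18b, Mrpl54, Mrpl17, Mrpl10 and Mrpl33) and 1 fell (Mrpl49), at a limma adjusted p under 0.05 over all 11022 genes tested. Across all genes 6.75% were called higher and 5.93% lower, beside 6.94% and 1.39% of the members. All 6 were among the 54 members above background on all arrays, of which they make up 9.26% and 1.85%, beside 15.9% and 15.1% of the 3659 genes that were above background on all arrays. The difference between these shares was not tested. The median difference over members was 0.03 log2, beside -0.00 for all genes, and 41 of 72 were above 0. The median standard error of a member's difference was 0.126 log2. The 95% interval of 51 of the 72 members lay within 0.5 log2 of 0 on either side, so larger differences were not seen for these, while smaller ones could be missed. For the 18 members under background on some array, narrow intervals do not limit the true difference, since the offset and background understate it.

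**Figure D1:**
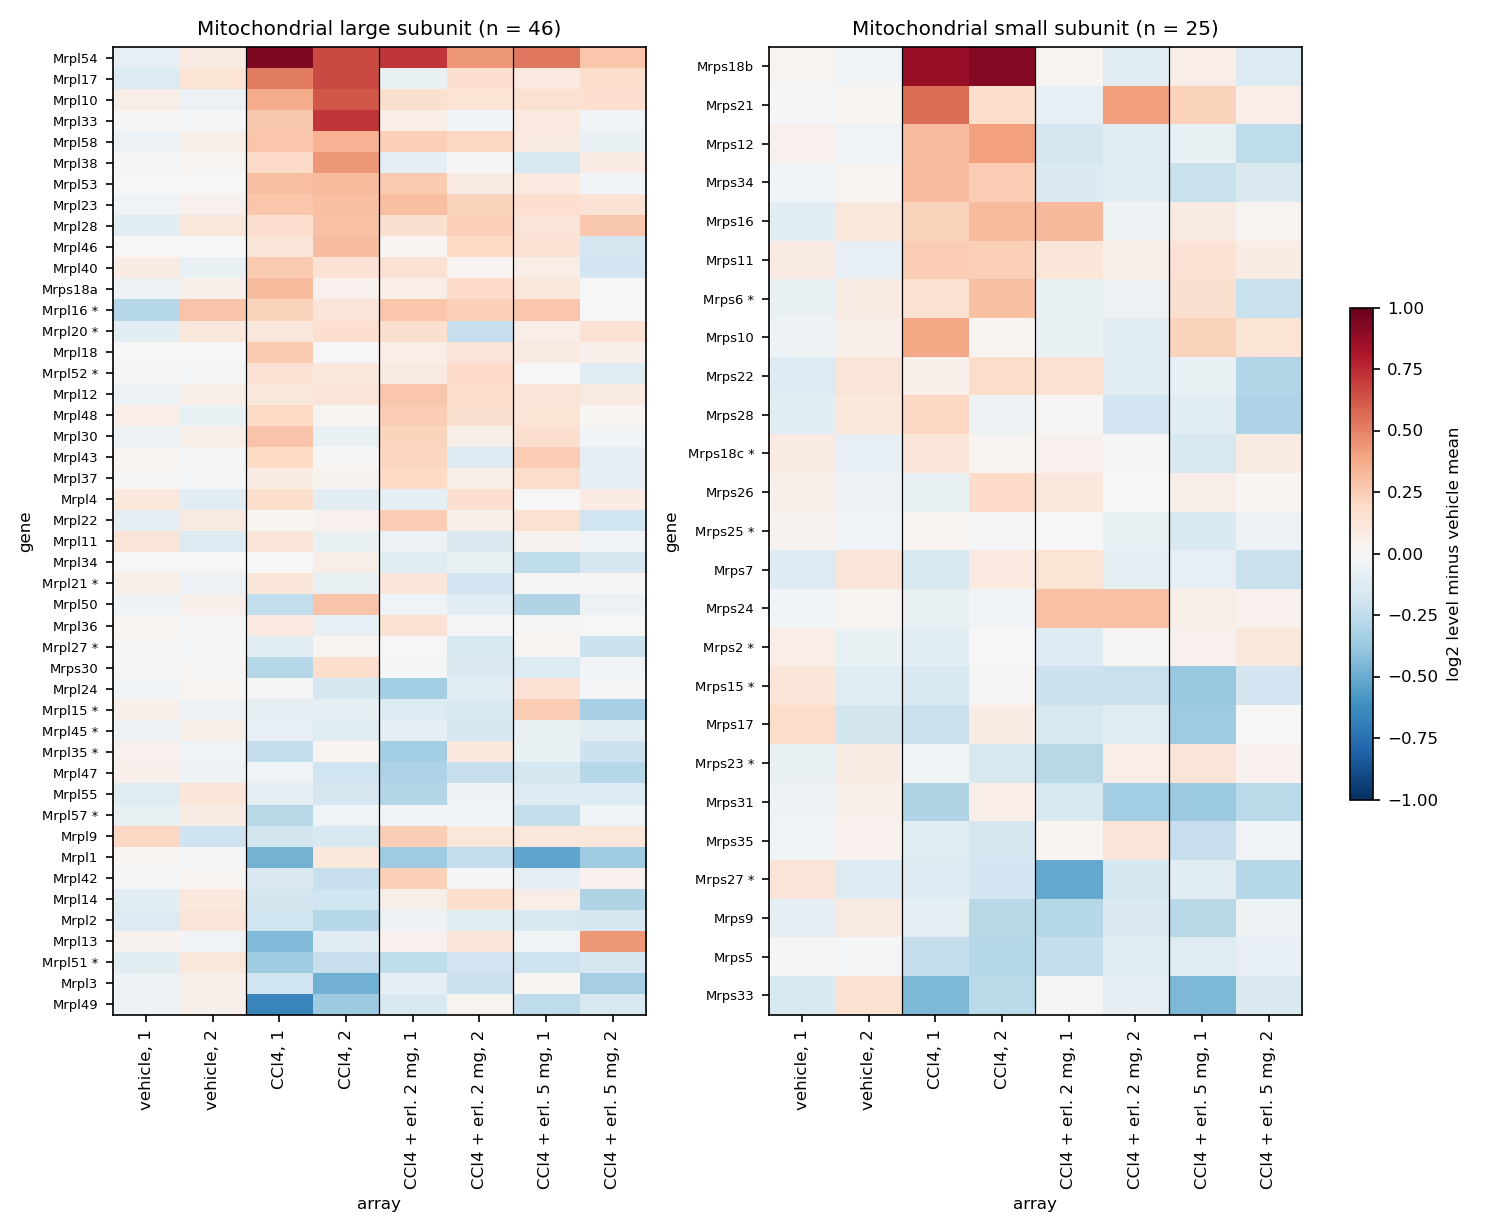
Level of each tested mitochondrial ribosomal protein gene on each of the 8 arrays, as log2 level minus the vehicle mean of that gene (colour), for the 46 large and 25 small subunit genes. Genes are ordered by their CCl4 difference, an asterisk marks a gene not above background on all 8 arrays, and vertical lines part the 4 groups; most rows stay pale, and the dark cells at the top are Mrps18b (CCl4 difference 0.89), Mrpl54 (0.80) and Mrpl17 (0.59).

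Mrps18b, one of the S18 family proteins and a part of the small subunit, had log2 levels of 9.02 and 8.96 with vehicle, 9.86 and 9.91 with CCl4, 9.01 and 8.88 with erlotinib 2 mg, and 9.06 and 8.85 with erlotinib 5 mg. Both CCl4 arrays stood well above all 6 others, which overlapped each other. It rose with CCl4 by 0.89 ± 0.12 log2 (SE, n = 2 arrays a group, limma adjusted p = 5.03e-05). Both erlotinib doses together were 0.93 lower than CCl4 (-0.93 ± 0.10 log2, limma adjusted p = 1.16e-05). A second, dimmer probe of the gene moved in the same directions, by 0.35 (adjusted p = 0.0703) and -0.44 (adjusted p = 0.00709), in a fit of every kept probe.

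Mrpl54, a large subunit protein found only in mitochondrial ribosomes, had levels of 7.97 and 8.13 with vehicle, 8.99 and 8.71 with CCl4, 8.76 and 8.48 with erlotinib 2 mg, and 8.58 and 8.33 with 5 mg. All 6 arrays from CCl4-treated mice were above both vehicle arrays, and the erlotinib 2 mg arrays overlapped the CCl4 arrays. Its rise with CCl4 was 0.80 ± 0.14 log2 (limma adjusted p = 0.000754). The difference of both doses from CCl4 was -0.31 ± 0.12 log2 (adjusted p = 0.136), which did not pass the test.

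Mrpl17, the counterpart of bacterial L17, which lies near the exit of the peptide tunnel, had levels of 8.90 and 9.18 with vehicle, 9.56 and 9.70 with CCl4, 8.97 and 9.21 with erlotinib 2 mg, and 9.14 and 9.22 with 5 mg. The CCl4 arrays were the 2 highest of the 8, and vehicle and erlotinib arrays overlapped. It rose by 0.59 ± 0.13 log2 with CCl4 (limma adjusted p = 0.00501) and fell by 0.50 with both doses (-0.50 ± 0.11, adjusted p = 0.00690). The rise missed the threshold without vehicle array 1 (0.45, adjusted p = 0.103) or CCl4 array 2 (0.52, adjusted p = 0.0596), and the fall missed it without CCl4 array 2 (-0.42, adjusted p = 0.125).

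Mrpl10, the counterpart of L10 at the base of the stalk that recruits translation factors, had levels of 9.72 and 9.61 with vehicle, 10.04 and 10.29 with CCl4, 9.83 and 9.81 with erlotinib 2 mg, and 9.82 and 9.83 with 5 mg. The 3 kinds of treatment did not overlap: vehicle was lowest, CCl4 highest and the erlotinib arrays lay between. A second probe, not above background on any array, gave 0.05 with CCl4 (limma adjusted p = 0.911) and -0.05 with both doses (adjusted p = 0.890). For the probe that stands for the gene, the rise with CCl4 was 0.50 ± 0.12 log2 (limma adjusted p = 0.00938) and the fall with both doses was -0.34 ± 0.10 (adjusted p = 0.0430). The rise missed the threshold without vehicle array 2 (0.44, adjusted p = 0.101) or CCl4 array 2 (0.37, adjusted p = 0.135), and the fall missed it when any array but CCl4 array 1 was left out, with -0.22 without CCl4 array 2.

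Mrpl33, the counterpart of bacterial L33, had levels of 8.96 and 8.94 with vehicle, 9.22 and 9.67 with CCl4, 9.02 and 8.92 with erlotinib 2 mg, and 9.05 and 8.92 with 5 mg. CCl4 array 2 stood far above the other 7, and CCl4 array 1 was closer to them. The rise was 0.49 ± 0.14 log2 (limma adjusted p = 0.0260) and the fall with both doses -0.47 ± 0.12 (adjusted p = 0.0167). Without CCl4 array 2 they were 0.27 (adjusted p = 0.365) and -0.24 (adjusted p = 0.430). The rise also missed the threshold without vehicle array 1 (adjusted p = 0.121) or 2 (adjusted p = 0.138), and the fall without array 2 of erlotinib 2 mg (-0.44, adjusted p = 0.0531) or of 5 mg (-0.43, adjusted p = 0.0580). A second probe of similar brightness gave 0.40 (adjusted p = 0.114) and -0.27 (adjusted p = 0.273).

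Mrpl49, a large subunit protein found only in mitochondrial ribosomes, was the member that fell. Its levels were 8.83 and 8.93 with vehicle, 8.22 and 8.52 with CCl4, 8.73 and 8.91 with erlotinib 2 mg, and 8.62 and 8.72 with 5 mg. The CCl4 arrays were the 2 lowest of the 8, and erlotinib 2 mg overlapped vehicle. The CCl4 difference was -0.51 ± 0.13 log2 (limma adjusted p = 0.0126), and both doses were higher than CCl4 by 0.38 ± 0.11 (adjusted p = 0.0365). The fall missed the threshold without CCl4 array 1 (-0.36, adjusted p = 0.163) or vehicle array 2 (-0.46, adjusted p = 0.118). The rise with erlotinib missed it without CCl4 array 1 (0.23, adjusted p = 0.431), either vehicle array (adjusted p = 0.0515), array 2 of erlotinib 2 mg (0.33, adjusted p = 0.110) or either array of 5 mg (0.40 and 0.35). Of the 3 other probes of Mrpl49, 2 were not above background on any array, and the remaining one gave -0.24 with CCl4 (adjusted p = 0.338). With all kept probes averaged, dim ones included, the fall was -0.20 (limma adjusted p = 0.273) and the rise with both doses 0.08 (adjusted p = 0.708).

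The members that did not pass lay between -0.36 and 0.37 log2 in CCl4 against vehicle. Mrps33, a small subunit protein found only in mitochondrial ribosomes, was at -0.36 ± 0.14 (limma adjusted p = 0.119). Mrpl3, the counterpart of L3 near the peptidyl transferase centre, was at -0.34 ± 0.14 (adjusted p = 0.146). Of the genes picked for their known roles, Mrpl12, the counterpart of the L7/L12 stalk protein, was at 0.12 ± 0.11 (adjusted p = 0.651). Mrps16 and Mrps22, small subunit proteins whose loss in humans causes mitochondrial disease, were at 0.27 ± 0.14 (adjusted p = 0.272) and 0.11 ± 0.14 (adjusted p = 0.747). Mrps30 was at -0.06 ± 0.14 (adjusted p = 0.898). Mrpl41 and Mrpl44 were not analysed here.

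In the large subunit 4 of 46 rose (8.70%) and 1 fell (2.17%), with a median of 0.03 log2, and in the small subunit 1 of 25 rose (4%), with a median of 0.01. Of the 40 tested members counted as having a bacterial counterpart 3 rose (7.5%), with a median of 0.03. Of the 31 counted as specific to mitochondria 2 rose (6.45%) and 1 fell (3.23%), with a median of 0.06. Of all genes tested 6.75% rose and 5.93% fell, and of those above background on all arrays 15.9% and 15.1%. These shares were not compared by a test. Summed over the 71 ribosomal members, intensity was 22258 and 22974 on the vehicle arrays and 24482 and 25450 on the CCl4 arrays. The sums were 23303 and 23680 with erlotinib 2 mg and 22210 and 22607 with 5 mg, so both CCl4 arrays were highest, and the erlotinib 5 mg arrays overlapped vehicle. Bright genes weigh most in such a sum. By sign, 41 of the 71 were above 0 with CCl4 and 30 below, with a median of 0.03 log2.

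Against CCl4, a few members differed in the erlotinib livers, and the 64 that did not pass the test with both doses lay between -0.31 and 0.41 log2. With both doses together 7 of the 72 members fell (Mrps18b, Mrps12, Mrpl17, Mrpl33, Mrps34, Mrpl38 and Mrpl10) and 1 rose (Mrpl49), where 6.01% of all genes were called lower and 5.35% higher. All of these were among the 54 members above background on all arrays, of which 13.0% were called lower and 1.85% higher. Of the 3659 genes above background on all arrays, 15.3% were called lower and 14.3% higher. The difference between these shares was not tested. The median over members was -0.04 log2, beside -0.00 for all genes, and 25 of 72 were above 0. These comparisons share the CCl4 arrays with CCl4 against vehicle, so a high or low value of a CCl4 array enters both with opposite sign. In the large subunit 4 of 46 fell (8.70%) and 1 rose (2.17%), with a median of -0.03, and in the small subunit 3 of 25 fell (12%), with a median of -0.11.

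Mrps12, the counterpart of S12 at the decoding centre, had levels of 9.45 and 9.37 with vehicle, 9.72 and 9.82 with CCl4, 9.24 and 9.30 with erlotinib 2 mg, and 9.34 and 9.16 with 5 mg. The CCl4 arrays were the highest, and all 4 erlotinib arrays lay below both vehicle arrays. The difference of both doses from CCl4 was -0.51 ± 0.10 log2 (limma adjusted p = 0.00236), and it missed the threshold without CCl4 array 2 (-0.46, adjusted p = 0.0532). CCl4 against vehicle was 0.36 ± 0.12 (adjusted p = 0.0546) and did not pass.

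Mrps34, a small subunit protein found only in mitochondrial ribosomes, whose mutation in mice impairs mitochondrial protein synthesis, had levels of 9.88 and 9.94 with vehicle, 10.22 and 10.17 with CCl4, 9.77 and 9.81 with erlotinib 2 mg, and 9.69 and 9.77 with 5 mg. Again the CCl4 arrays were the highest and the erlotinib arrays were below vehicle. Both doses against CCl4 gave -0.44 ± 0.10 log2 (limma adjusted p = 0.00582), or -0.41 (adjusted p = 0.0572) without CCl4 array 1. CCl4 against vehicle was 0.28 ± 0.11 (adjusted p = 0.132).

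Mrpl38, a large subunit protein found only in mitochondrial ribosomes, had levels of 9.93 and 9.96 with vehicle, 10.14 and 10.38 with CCl4, 9.85 and 9.95 with erlotinib 2 mg, and 9.78 and 10.03 with 5 mg. The CCl4 arrays were the highest, and the erlotinib arrays overlapped vehicle. Its fall with both doses was -0.35 ± 0.11 log2 (limma adjusted p = 0.0475). This call was close to the threshold and missed it when any array but CCl4 array 1 or array 2 of erlotinib 5 mg was left out, with -0.24 (adjusted p = 0.481) without CCl4 array 2.

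**Figure D2:**
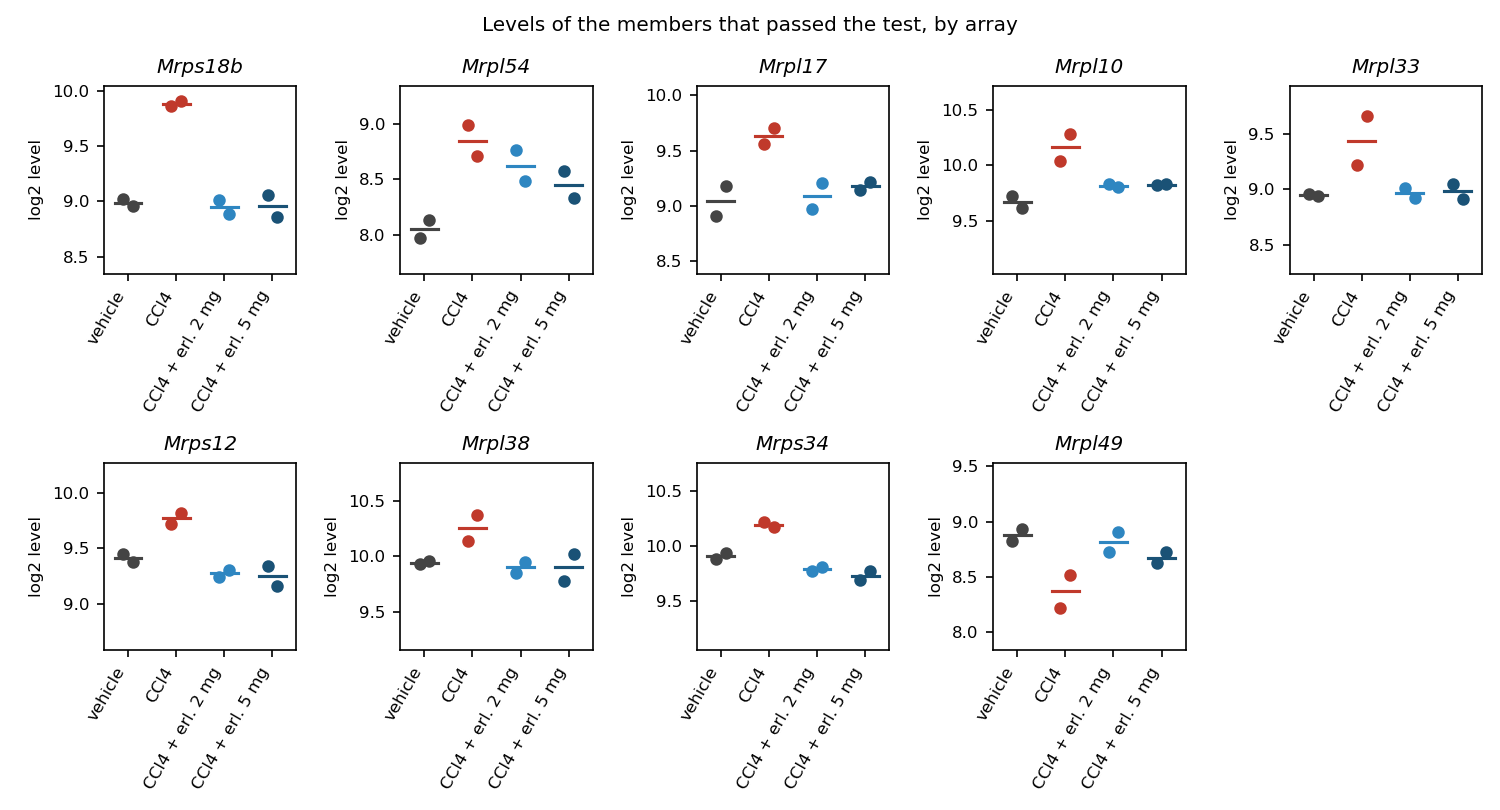
Log2 level on each array (points) and group mean (bars) of the 9 members that passed the test in CCl4 against vehicle or in both erlotinib doses against CCl4; every panel spans the same number of log2 units, and its axis does not start at 0. The CCl4 arrays are the 2 highest of 8 in each panel except that of Mrpl49, where they are the lowest, and of Mrpl54, where an erlotinib 2 mg array (8.76) is above a CCl4 array (8.71). The panels were picked by tests that use the CCl4 arrays, so such a separation is largely built in. CCl4 and vehicle arrays did not overlap in 47.2% of tested members and 48.6% of all genes tested. For both doses against CCl4 the shares were 26.4% and 27.2%.

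Each dose was also compared with CCl4 alone. With 2 mg against CCl4, 5 of the 72 members fell (Mrps18b, Mrpl17, Mrps12, Mrpl33 and Mrps34) and 1 rose (Mrpl49), where 4.45% of all genes were called lower and 4.18% higher. With 5 mg against CCl4, 4 fell (Mrps18b, Mrps12, Mrps34 and Mrpl17) and 0 rose, where 4.65% of all genes were called lower and 4.41% higher. Of the 54 members above background on all arrays, 9.26% were called lower and 1.85% higher with 2 mg. Of all genes above background on all arrays it was 11.5% and 11.2%. With 5 mg these shares were 7.41% and 0% of members, beside 11.9% and 12.1% of genes. The difference of Mrps18b was -0.94 ± 0.12 log2 with 2 mg and -0.93 ± 0.12 with 5 mg (limma adjusted p = 7.13e-05 for each), and it passed with any 1 array left out. The other calls for a single dose did not: without CCl4 array 2 the adjusted p at 2 mg and 5 mg was 0.134 and 0.268 for Mrpl17, 0.106 and 0.0843 for Mrps12, and 0.108 and 0.0583 for Mrps34, and Mrpl33 at 2 mg did not pass either, while without CCl4 array 1 that of Mrpl49 at 2 mg was 0.311. Each of these calls was also lost without at least 1 array of its own dose. Mrpl13, the counterpart of L13, was the member furthest above CCl4 with 5 mg, at 0.47 ± 0.15 (adjusted p = 0.0701), and at 0.41 ± 0.13 with both doses (adjusted p = 0.0536). Its last erlotinib 5 mg array, at 9.04, stood above the other 7, which lay between 8.17 and 8.74, and without array 1 of that group or without CCl4 array 2 the difference with both doses passed the test (0.53, adjusted p = 0.0105, and 0.58, adjusted p = 0.0427). Mrpl9, the counterpart of L9, was at 0.31 ± 0.12 with both doses (adjusted p = 0.108). Mrps24, the counterpart of bacterial S3, was at 0.34 ± 0.11 with 2 mg (adjusted p = 0.0705).

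The doses could not be told apart in these genes. Of the 72 members 0 passed the limma test in 5 mg against 2 mg in either direction, 2 had an unadjusted p under 0.05 and the smallest adjusted p was 0.996, where 0.0181% of all genes were called higher and 0% lower. The differences ran from -0.24 to 0.29 log2, and the 95% interval of 68 of the 72 members lay within 0.5 log2 of 0. Dim members, whose differences are understated, enter this count. The lowest were Mrps24 (-0.24), Mrps33 (-0.24) and Mrpl14 (-0.24), and the highest Mrpl24 (0.29), Mrps10 (0.27) and Mrps23 (0.19). Mrps23 and Mrps33 are found only in mitochondrial ribosomes, and the others have bacterial counterparts.

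Against vehicle, the mice given CCl4 with erlotinib differ in both agents. Most members were close to the vehicle level in them. Only Mrpl54 passed the limma test in both doses against vehicle, at 0.49 ± 0.12 log2 (adjusted p = 0.0354), so 1 of 72 rose and 0 fell, where 1.95% of all genes were called higher and 1.58% lower. It missed the threshold without vehicle array 1 (0.40, adjusted p = 0.397) or 2 (0.57, adjusted p = 0.126), or without array 1 of erlotinib 2 mg (0.42, adjusted p = 0.129) or of 5 mg (0.42, adjusted p = 0.135). The median over members was -0.01, and 68 of 72 intervals lay within 0.5 log2 of 0, those of dim members with understated differences among the 72. Mrps18b, with -0.04 ± 0.10 (adjusted p = 0.933), had a 95% interval from -0.26 to 0.18. The members furthest below vehicle were Mrpl1, the counterpart of the L1 stalk protein (-0.37 ± 0.13, adjusted p = 0.183), Mrps31 (-0.29 ± 0.12, adjusted p = 0.262) and Mrps27 (-0.27 ± 0.12, adjusted p = 0.324). After Mrpl54 the highest were Mrpl23 (0.21 ± 0.10, adjusted p = 0.358) and Mrpl28 (0.20 ± 0.11, adjusted p = 0.460).

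The cytosolic ribosome and the oxidative phosphorylation complexes gave other pictures on the same arrays. Of 55 tested genes for cytosolic ribosomal proteins, 35 rose and 0 fell with CCl4, with a median of 0.64 log2, and with both erlotinib doses 0 rose and 33 fell, with a median of -0.46. Of 65 tested genes for nuclear-encoded oxidative phosphorylation subunits, which assemble with the products of the mitochondrial ribosome, 0 rose and 12 fell with CCl4 (median -0.17), and 13 rose and 1, Cox6a2, fell with both erlotinib doses (median 0.23). The medians of both lists kept their direction with the authors' processed values, without background correction and with median scaling. With median scaling fewer genes passed: 5 cytosolic genes rose with CCl4 and 1 fell with both doses, and 1 oxidative phosphorylation gene fell with CCl4 and 0 rose with both doses. The mitochondrial ribosomal genes lay between them, with medians of 0.03 and -0.04. Of the cytosolic genes 63.6% rose with CCl4 and 60% fell with both doses, and of the oxidative phosphorylation genes 18.5% fell and 20% rose. Of all genes tested 6.75% rose and 5.93% fell with CCl4, and 5.35% and 6.01% with both doses. Of those above background on all arrays the shares were 15.9% and 15.1% with CCl4, and 14.3% and 15.3% with both doses. These are counts and medians with no test of a difference between lists.

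**Figure D3:**
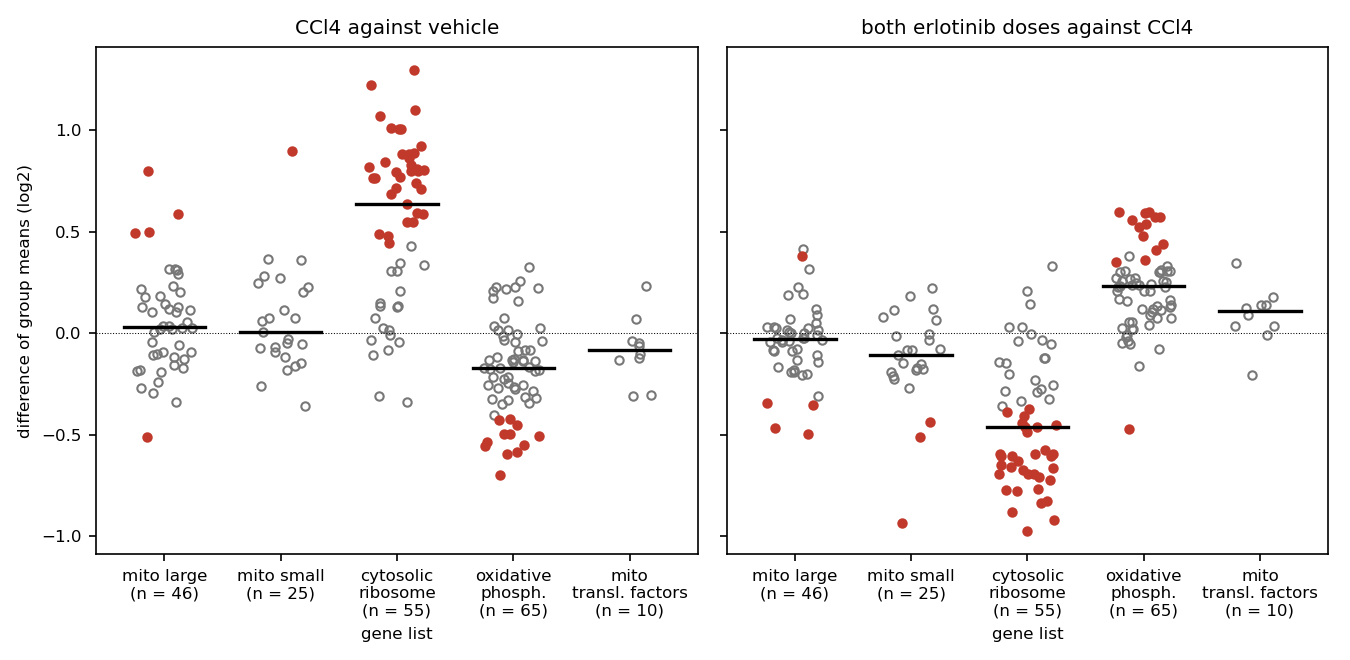
Difference of group means (log2) of each tested gene in CCl4 against vehicle and in both erlotinib doses against CCl4, for mitochondrial large and small subunit proteins, cytosolic ribosomal proteins, oxidative phosphorylation subunits and mitochondrial translation factors. Filled points passed the limma test, open points did not, black bars are medians; the mitochondrial subunits centre on 0.03 and 0.01 with CCl4, the cytosolic ribosome on 0.64 and oxidative phosphorylation on -0.17. The panels share the CCl4 arrays.

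Genes that work with the mitochondrial ribosome were counted in the same way, to be read beside the same shares of all genes. Of 10 tested translation factors 0 passed in CCl4 against vehicle or in both doses against CCl4. Of 16 genes for mitochondrial aminoacyl-tRNA synthesis, 2 rose with CCl4, Gars (1.16 ± 0.11 log2, limma adjusted p = 2.25e-06) and Kars (0.56 ± 0.17, adjusted p = 0.0419), which serve the cytosol too, and 1 fell, Gatb (-0.42 ± 0.12, adjusted p = 0.0252), a subunit of the amidotransferase that completes glutamine tRNA in mitochondria. With both erlotinib doses against the same CCl4 arrays, Gars was at -0.88, Kars at -0.64 and Gatb at 0.53, all past the test. Of 16 ribosome assembly genes, Trub2, a pseudouridine synthase, rose (0.54 ± 0.14, adjusted p = 0.0141), and Rbfa, which acts in maturation of the small subunit, fell with CCl4 (-0.42 ± 0.12, adjusted p = 0.0261) and rose with both erlotinib doses (0.34 ± 0.10, adjusted p = 0.0430).

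Of 17 genes for expression and upkeep of mitochondrial DNA 2 fell with CCl4, the transcription factor Tfb2m (-0.50 ± 0.13 log2, limma adjusted p = 0.0175) and Hsd17b10, a subunit of mitochondrial RNase P (-0.39 ± 0.12, adjusted p = 0.0478). With both erlotinib doses 0 of the 17 passed, while with 2 mg alone Hsd17b10 was higher than with CCl4 (0.44 ± 0.12, adjusted p = 0.0350). Of 16 import and chaperone genes 2 rose and 2 fell with CCl4 (12.5% each), and of 18 enzymes of the mitochondrial matrix and membrane 0 rose and 5 fell (27.8%). Of genes above background on all arrays 15.9% rose and 15.1% fell with CCl4. With both doses 1 import gene rose (6.25%) and 2 fell (12.5%), and 4 of the 18 enzymes rose (22.2%) and 1 fell (5.56%), beside 14.3% and 15.3% of those genes. Of the mitochondrial ribosomal proteins with other names 2 were tested and 0 passed: Dap3 was at -0.27 ± 0.11 with CCl4 (adjusted p = 0.166) and Chchd1 at 0.11 ± 0.13 (adjusted p = 0.740).

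The factors named for the promoter motifs were also on the arrays. Of 11 tested regulators of mitochondrial genes, 5 were under background on every array, Gabpa and Myc among them, and 0 passed the limma test with CCl4. Nrf1 was at 0.10 ± 0.12 log2 (adjusted p = 0.761). With both erlotinib doses Ppargc1b, a coactivator of mitochondrial gene expression, rose by 0.98 ± 0.17 (adjusted p = 0.000702), and it was above background on 7 of 8 arrays. An mRNA level says nothing of the activity of the factor.

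Many of these genes start close to a gene on the other strand. The promoter windows of 24 of 67 members (35.8%) overlapped that of a gene on the opposite strand, against 3212 of 27025 genes (11.9%), tested here or not. The share among tested genes alone was not computed. In 14 such pairs both genes were tested. By sign alone, the genes of a pair moved the same way with CCl4 in 7 pairs and opposite ways in 7. Only for Mrpl49 and its partner Fau did both genes pass the limma test with CCl4, in opposite directions.

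Fau, which encodes the cytosolic ribosomal protein S30 joined to a ubiquitin-like protein, shares 291 of the 300 bases of the window printed for Mrpl49, on chromosome 19. Its levels were 11.21 and 11.40 with vehicle, 11.93 and 11.82 with CCl4, 11.56 and 11.47 with erlotinib 2 mg, and 11.46 and 11.40 with 5 mg, so the CCl4 arrays were the 2 highest where those of Mrpl49 were the 2 lowest. Fau rose with CCl4 by 0.57 ± 0.12 log2 (limma adjusted p = 0.00272) and fell with both doses (-0.41 ± 0.10, adjusted p = 0.0136). The rise missed the threshold without vehicle array 1 (0.48, adjusted p = 0.0546), and the fall without CCl4 array 1 (-0.35, adjusted p = 0.134) or 2 (-0.46, adjusted p = 0.0544). With median scaling neither passed (adjusted p = 0.684 and 0.717). Sars2, the mitochondrial seryl-tRNA synthetase that starts beside Mrps12 on the other strand, was at -0.13 ± 0.13 with CCl4, beside 0.36 for Mrps12.

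**Figure D4:**
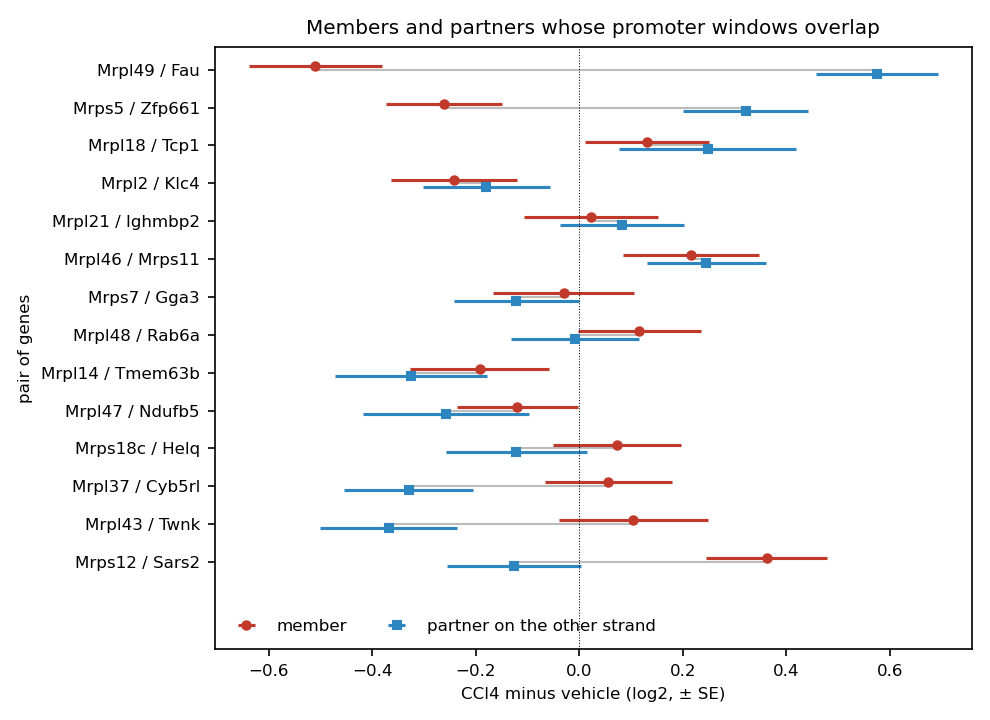
CCl4 minus vehicle difference (log2, with its SE as bars) of 14 pairs of genes on opposite strands whose promoter windows overlap, with the member as a circle and its partner as a square; for the pair Mrpl46 and Mrps11 both are members. The pair furthest apart at the top is Mrpl49 (-0.51) and Fau (0.57).

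The mRNA levels of markers of several liver cell types moved with these comparisons. Whole liver was measured, so fewer cells of a type and less RNA per cell cannot be told apart. All 10 tested hepatocyte markers were above background on at least 1 array, while 4 of 5 lymphocyte markers were not on any. With CCl4, 5 of 8 tested macrophage markers, 6 of 9 stellate cell markers and 3 of 5 cycling cell markers rose, and 4 of 10 hepatocyte markers fell. None of these lists had a call in the other direction. By sign alone, 2 hepatocyte markers were above 0, while 2 stellate cell markers and 1 cycling cell marker were below 0. Of 8 endothelial, 5 lymphocyte and 1 cholangiocyte markers 0 passed the limma test. Summed intensity of the macrophage list was 1599 to 1694 with vehicle, 4576 to 4835 with CCl4, 3088 to 4007 with erlotinib 2 mg and 3018 to 3039 with 5 mg. That of the stellate list was 938 to 966, 1569 to 2094, 1426 to 1460 and 1135 to 1219 in the same order, and that of the hepatocyte list 64096 to 67352, 63939 to 66490, 59334 to 61565 and 60523 to 63782. With both erlotinib doses 3 of 8 macrophage, 3 of 9 stellate cell and 2 of 5 cycling cell markers fell, while 2 of 10 hepatocyte markers rose and 1 fell. Of all genes above background on all arrays, 15.9% rose and 15.1% fell with CCl4, and 14.3% and 15.3% with both doses. By sign alone, 1 macrophage, 3 stellate cell and 2 cycling cell markers were above 0 with both doses. Of the hepatocyte markers 3 were below 0, the called one among them. The part of these changes in the differences of Mrps18b, Mrpl54 and the other members was not tested. The titles of the vehicle arrays carry a code with the letters OO and those of all other arrays one with CT, and what these letters mark cannot be told apart from CCl4 treatment.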

How the data were processed

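The main deposited table, not normalized, gives 1 intensity per probe and array on a linear scale (array medians 99.8 to 130); the labels give Cy5-labelled total RNA and no further processing. A second deposited table, processed by the authors by steps that the labels do not name, has intensity medians near 117 and was an alternative. Probe symbols came from the platform annotation: 23978 of 25697 probes have 1 symbol, 0 several and 1719 none.

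Intensities were background-corrected (normexp, offset 50), quantile-normalized and log2-transformed with limma 3.58.1 in R 4.3.3. Probes above the 40th percentile of mean log2 intensity were kept (15418), and the brightest probe of a gene stood for it, which left 11022 genes. A detection p-value was assumed in the design but is not in the files, so the receptor probes gave the background limit, 111 to 145 before correction; 4405 tested genes were under it on every array. All 8 arrays entered 1 fit (lmFit, eBayes, with 4 degrees of freedom from residuals and 11.9 from the prior), with Benjamini-Hochberg adjustment over all genes tested. The fit was tried on simulated data with independent normal noise and spreads shrunk as in the fit. Such a trial says nothing of noise that arrays or groups share. With 2 arrays per group their number limits the precision. Motifs were searched with Python 3.11.15.

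Members and gene lists were chosen with earlier results of these data known. Named with values were members that passed in CCl4 against vehicle or both doses against CCl4, the 3 largest rises and falls in each comparison, and a fixed set; Fau, Sars2, Mrps36 and Cox6a2 were chosen after their values were seen. Replicate numbers are names given in record order and pair nothing. Alternatives were: the table processed by the authors, leaving out background correction, scaling by the median, keeping dim probes, a robust prior with an intensity trend, other uses of several probes, array weights, only the arrays compared, each array left out in turn, and 2 filters on the receptor background that were added after the data were seen.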

Additional observations from a re-analysis of the deposited data

How the results depend on the processing

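Each result was recomputed under up to 19 alternatives, and no difference of a called member changed direction. Mrps18b and Mrpl54 with CCl4 passed under all 19 (0.62 to 0.92, adjusted p at most 0.0439, and 0.66 to 0.94, at most 0.0203), as did Mrps18b with both doses (adjusted p at most 0.0201). Other calls were lost under some: with CCl4 Mrpl10 under 4, Mrpl17 under 3, Mrpl33 under 7 and Mrpl49 under 4; with both doses Mrpl10 under 11, Mrpl17 under 2, Mrpl33 under 5, Mrpl38 under 12, Mrpl49 under 10, Mrps12 under 2 and Mrps34 under 2. Median scaling in place of quantile normalization gave the fewest calls among members: 2 with CCl4 (Mrps18b and Mrpl54; median 0.0871), 0 with 2 mg (median -0.0673), 0 with 5 mg (median -0.0885), 1 with both doses (Mrps18b; median -0.0813) and 0 against vehicle. Over all genes it called 273 higher and 208 lower with CCl4, against 744 and 654, and 136 and 179 with both doses, against 590 and 662. Without background correction 10 members were called with CCl4 and 0 in both doses against vehicle, where the authors' values and the filter on all 8 arrays also gave 0. An intensity trend gave 3 calls with 2 mg and 5 with both doses, as did a fit of only the arrays compared, and averaging a gene's probes gave 5 with both doses. The CCl4 median was 0.0564 and 0.0572 with the receptor filters on at least 2 and on all 8 arrays, and the median against vehicle was -0.0388 with every probe on its own and 0.0298 with the filter on all 8 arrays. The causes were not tested.

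With 1 array left out, the lone array of its group is assumed to vary like the others. Called members then numbered 3 to 6 with CCl4 (median -0.00131 to 0.0392), 1 to 5 with 2 mg (-0.0589 to -0.0383), 1 to 4 with 5 mg (-0.110 to -0.0382), 4 to 7 with both doses (-0.0671 to -0.0414), 0 in 5 mg against 2 mg (-0.0698 to -0.0240) and 0 to 1 in both doses against vehicle (-0.0372 to 0.00658). The count fell to 3 with CCl4 without vehicle array 2 or CCl4 array 2. With 2 mg it fell to 2 without CCl4 array 2, and to 1 and 3 without array 1 and 2 of that dose. With 5 mg it fell to 1 without CCl4 array 2 or array 2 of that dose. With both doses it was 5 without either vehicle array or array 2 of 5 mg, and 4 without CCl4 array 2 or array 2 of 2 mg. Against vehicle it was 0 without either vehicle array or array 1 of either dose.

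No paired analysis was possible because the labels give no replicate numbers. A slide block and a detection p-value filter were not run because the files hold neither slides nor detection p-values. With 18 of 72 members under background on some array, differences of dim members are understated by the offset and background.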
